A study of Homo sapiens with 6 samples.

Results

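The TMEM genes are human genes named only as transmembrane protein plus a number, with or without a final letter. Every gene whose symbol is TMEM followed by digits and at most 1 letter was taken from either deposited table, which gave 136 genes of 10779. Of these, 105 have a translational efficiency, 121 have a transcript with ribosome occupancy and 90 have both. The data come from ribosome profiling of HEK293, an established line from human embryonic kidney, given a control siRNA and cultured in DMEM with serum. Cells and lysates were treated with cycloheximide at 100 µg/ml, and 3 libraries of ribosome-protected fragments (RPFs) and 3 of total RNA were made, a pair from each of 3 lysates. All samples are of this single condition, so the comparisons run between genes and not between treatments. Neither table gives RNA levels directly, so the identity of the line was not tested against marker genes.

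The TMEM name is a placeholder for proteins predicted to cross a membrane, and it says nothing of shared ancestry or function. Membrane proteins of the secretory pathway are made by ribosomes at the endoplasmic reticulum (ER) and inserted there by a translocon, whereas those of mitochondria are imported after synthesis in the cytosol. Many TMEM genes now have known roles, as assembly factors of respiratory complexes, subunits of lipid flippases and of the oligosaccharyltransferase, components of the cilium transition zone, ion channels or lysosomal proteins. Of the 136 genes, 18 carry another symbol today. The older symbols of the tables are used here.

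Translational efficiency (TE) is the ratio of RPFs to total RNA of a gene. Its formula is not given, so it is not known whether gene length cancels in it. The 105 TMEM genes spanned 141-fold in mean TE, from 0.0344 to 4.84, with a median of 0.348 and quartiles of 0.196 and 0.653. The median of all 8121 genes was 0.385, with quartiles of 0.198 and 0.825. Replicates differed far less than genes did. In log2 units the SD over replicates had a median of 0.12, where the SD between TMEM genes was 1.33, and replicates correlated with r of 0.981 to 0.986 across the 105 genes. Tested against the median of all genes with limma at an FDR of 0.05, 42 TMEM genes were higher, 49 were lower and 14 were not called. That is 86.7% called, where 89.3% of all genes were, and 40% higher and 46.7% lower, where 44.7% and 44.6% of all genes were. These shares are close to those of the whole table. Solute carriers outside SLC25 had a median TE of 0.277 (27 higher and 54 lower of 91) and mitochondrial carriers of the SLC25 family had 0.278 (8 higher and 17 lower of 28).

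The bases around the start codon are shown for genes at both ends of the TE range, since this is where the ribosome commits to the reading frame. The sequences are those of GENCODE transcripts on GRCh37, the start codon is in capitals and its position follows the gene name. The first 5 genes are among the 10 highest in TE and the last 5 among the 10 lowest.
TMEM50A, chr1:25666978-25666980, plus strand: gacctgaaaaaaATGtctggatttctagag
TMEM242, chr6:157744529-157744531, minus strand: ggcgacctaaacATGgagacagcgggcgct
TMEM261, chr9:7799732-7799734, minus strand: gagttccagagcATGgggtctcggttgtcc
TMEM30A, chr6:75994352-75994354, minus strand: ccccagggatcgATGgcgatgaactataac
TMEM14A, chr6:52541901-52541903, plus strand: gcaaccttgccaATGgacctgatcggtttt
TMEM222, chr1:27648689-27648691, plus strand: ggcgcgcgccgcATGgcggaagcggaaggg
TMEM177, chr2:120438430-120438432, plus strand: gtgactacactcATGgcaggtcccctgtgg
TMEM259, chr19:1020993-1020995, minus strand: acgctgggaggcATGtcggagcacgtggag
TMEM129, chr4:1722562-1722564, minus strand: ggcggctgcgcgATGgacagccccgaggtg
TMEM106C, chr12:48358020-48358022, plus strand: catatcacggccATGgggtctcagcattcc
A purine 3 bases before the start codon and a G directly after it are the best known parts of a favourable context. Both were present in TMEM242 and TMEM261 and also in TMEM129 and TMEM106C, while the purine was absent from TMEM30A and TMEM14A and also from TMEM222 and TMEM177. Over the 118 TMEM transcripts matched to GENCODE, 98 (83.1%) had the purine and 55 (46.6%) had both, compared with 85.5% and 45.8% of all 9177 matched transcripts. The 77 TMEM genes with the purine and a TE had a median TE of 0.348, and the 12 with a pyrimidine had 0.390. Over all genes the medians were 0.409 and 0.303.

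The highest TE of the set belonged to TMEM50A, a small membrane protein on no role list, with 4.73, 4.74 and 5.05 in the 3 replicates. It ranked 202 of the 8121 genes and stood 3.62 ± 0.05 (SE) above the median on the log2(TE + 0.01) scale (limma, adjusted p = 1.09e-06). TMEM242, an assembly factor of ATP synthase, had 4.14, 4.23 and 4.09, with 21.7% of its coding 30-mers shared with another annotated gene. Next in order came TMEM167A with a mean TE of 2.98, TMEM65 with 2.75, TMEM261 with 2.41 and TMEM167B with 2.20. TMEM167B was the least even of these, and its second replicate (1.71) lay well under the others (2.41 and 2.46), so that its place between neighbours is within its spread. TMEM30A (1.72), TMEM14A (1.69) and TMEM69 (1.58) overlapped between replicates, while TMEM87B (1.13) lay below every replicate of these 3. All 10 genes were called higher, but they were picked by the same values, so the calls are no separate support.

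At the other end, TMEM106C, a relative of the lysosomal TMEM106B, had a TE of 0.0310, 0.0373 and 0.0350, the lowest of the set and rank 8101 of 8121. It lay 3.15 ± 0.06 (SE) under the median on the log2(TE + 0.01) scale (limma, adjusted p = 1.62e-06). The log2 value of -3.15 depends on the pseudocount and was -1.85 with 0.1. TMEM129, a ubiquitin ligase that marks ER proteins for degradation, had 0.0485, 0.0429 and 0.0460 and did not overlap with TMEM106C. TMEM259 (membralin, of the same degradation pathway) followed with a mean of 0.0587, TMEM189 with 0.0660, TMEM177 with 0.0700 and TMEM205 with 0.0727. The replicates of these 4 genes overlapped, so their order is within the error. TMEM184B (0.0837), TMEM222 (0.0883), TMEM126B (0.0920) and TMEM230 (0.101) completed the lowest 10. All 10 were called lower, again after being picked by the same values. TMEM189 encodes the desaturase that makes plasmalogens. Of its coding 30-mers 84.6% also lie in another annotated gene, as do 50.6% of those of TMEM230. How the authors' counting treated reads of such stretches is not known, so the TE of both is less certain.

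The least reproducible values were those of TMEM192, a lysosomal protein, with 0.393, 0.222 and 0.364, of TMEM68, an acyltransferase of triacylglycerol synthesis, with 0.694, 0.452 and 0.814, and of TMEM170A with 0.129, 0.156 and 0.226. Even here the SD over replicates was at most 0.45 on the log2 scale.

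**Figure D1:**
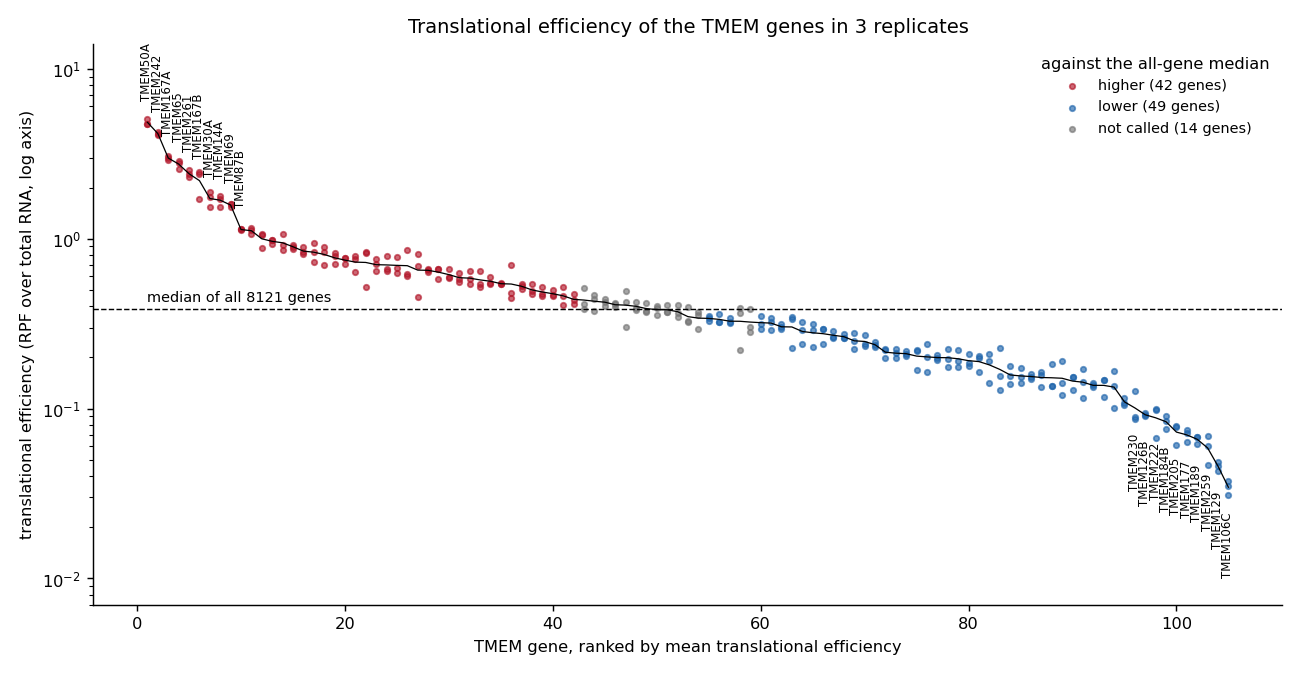
TE of the 105 TMEM genes in each of 3 replicates (points, log axis), ranked by mean TE (line) and coloured by the limma call against the all-gene median (dashed, 0.385). The genes run without a break from 4.84 for TMEM50A to 0.0344 for TMEM106C, and the 14 uncalled genes lie around the median.

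By known role, the lists hold 2 to 11 measured genes each. Of all genes 44.7% were called higher and 44.6% lower. Of 8 genes of ER protein entry, glycosylation and quality control 6 were lower (75%) and 2 higher (25%), with a median TE of 0.198. TMEM208, of the SRP-independent route into the ER, had 0.176, 0.196 and 0.225, and TMEM147, which binds nicalin and NOMO at the translocon, had 0.177, 0.223 and 0.190. Both lay below the median in every replicate. TMEM258, a small subunit of the oligosaccharyltransferase that N-glycosylates proteins, was higher with 0.728, 0.830 and 0.939, as was TMEM131, needed for procollagen secretion, with 0.896, 0.872 and 0.923. TMEM5, a xylosyltransferase of dystroglycan, was lower at 0.143, and TMEM93, the EMC6 subunit of the ER membrane protein complex, was lower at 0.320.

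Their partner genes are given beside the 44.7% of all genes that were called higher, with no test of the lists against each other. Of the 10 other oligosaccharyltransferase genes measured, 8 were higher and 1 was lower, with a median TE of 0.633 beside 0.833 for TMEM258. Of the nicalin, NOMO and translocon genes 11 of 13 were higher, with a median of 0.930. Nicalin itself (NCLN) was lower with a TE of 0.124, on the same side as its binding partner TMEM147, whereas CCDC47 (1.26), TMCO1 (0.817) and NOMO2 (4.88) were higher. The replicates of NOMO2 were 4.25, 4.34 and 6.03, and shared sequence is not given here for partner genes. Of the ER membrane protein complex 6 of 8 genes were higher. Its subunits ranged from 0.194 for EMC4 to 6.19 for MMGT1, and TMEM93 lay between EMC10 (0.222) and EMC8 (0.592).

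In ER ion handling, TMEM38B, a cation channel of the ER membrane, was higher with 0.707, 0.767 and 0.770, and TMEM110, which promotes STIM1 activation, was lower with 0.108, 0.116 and 0.105. Of TMEM110 99.4% of the coding 30-mers also belong to another annotated gene on the same strand.

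Membrane lipid genes were split, with 3 higher (37.5%), 4 lower (50%) and 1 not called of 8, where 44.7% and 44.6% of all genes were higher and lower. TMEM30A, the CDC50A subunit that many but not all P4-ATPase lipid flippases need to leave the ER, had 1.55, 1.75 and 1.87. Of 14 listed P4-ATPase genes 6 were measured, and each was called lower, where 44.6% of all genes were. They ran from 0.0586 for ATP8B2 to 0.253 for ATP8A1. The lowest replicate of TMEM30A lay above the highest of any measured flippase (0.293, for ATP8A1). TMEM64, of the DedA family, was higher at 0.486, while TMEM41B, a scramblase needed for autophagosomes, was lower at 0.248. TMEM97, the sigma-2 receptor, was lower at 0.212, and TMEM188, which activates the lipin phosphatase, was lower at 0.151.

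Of 9 Golgi and vesicle genes 6 were higher (66.7%) and 2 lower (22.2%), where 44.7% and 44.6% of all genes were. Their median TE was 0.586. TMEM167A and TMEM167B, the small KISH proteins, and TMEM87B led them. TMEM59, which slows glycosylation of the amyloid precursor protein, had 0.636, 0.662 and 0.656. TMEM199, an assembly factor of the V-ATPase, was higher with 0.538, 0.576 and 0.643, and 83.9% of its coding 30-mers are shared. Of the 4 other V-ATPase assembly genes VMA21 (0.604) and ATP6AP1 (0.502) were higher, and CCDC115 (0.140) and ATP6AP2 (0.123) were lower. TMEM165, the Golgi manganese transporter, was not called at 0.400, and TMEM115 (0.340) and TMEM230 (0.101) were lower.

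Of the 6 lysosomal and endosomal genes 3 were higher (50%, beside 44.7% of all genes) and 3 were not called. TMEM106B, a risk gene of frontotemporal dementia, had 0.664, 0.579 and 0.663. TMEM9 (0.499) and TMEM9B (0.461) were higher, and TMEM127 (0.382), TMEM55B (0.348) and TMEM192 (0.327) were not called.

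Of 11 mitochondrial genes 6 were higher and 5 were lower, shares of 54.5% and 45.5% that are near the 44.7% and 44.6% of all genes. The high genes were TMEM242, TMEM65, TMEM261, TMEM11, TMEM70 and TMEM186, and the low genes were TMEM223, TMEM126A, TMEM160, TMEM126B and TMEM177. Genes of 1 complex fell on both sides. TMEM186 and TMEM126B both belong to the MCIA complex that assembles respiratory complex I. TMEM186 had 0.922, 1.06 and 0.856, and TMEM126B had 0.0900, 0.0941 and 0.0918. Of their MCIA partners ECSIT was lower at 0.0595, ACAD9 was lower at 0.194, TIMMDC1 was higher at 0.464 and NDUFAF1 was not called at 0.424. TMEM177, which stabilises COX20, had 0.0634, 0.0718 and 0.0748, and COX20 had 1.38, 1.05 and 1.15. TMEM70 and TMEM242 both assist ATP synthase, with a TE of 0.965 and 4.15, whereas the assembly factors ATPAF1 (0.225) and ATPAF2 (0.264) were lower. The list of assembly genes outside the TMEM set holds COX20 beside genes of complex I and ATP synthase. Of its 14 genes 5 were higher, 8 lower and 1 not called.

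Cilium transition zone genes had 2 higher (40%) and 3 lower (60%) of 5, where 44.7% and 44.6% of all genes were. TMEM17 was higher with 0.889, 0.702 and 0.832, and TMEM138 was higher at 0.572. Meckelin (TMEM67) had 0.154, 0.141 and 0.173, TMEM216 had a mean of 0.202 and TMEM237 one of 0.204, all lower. Of 6 partner genes of the zone 4 were lower (66.7%) and 2 were not called, with B9D1 at 0.0703 and MKS1 at 0.0977. Nuclear envelope genes had 3 higher (60%), 1 lower (20%) and 1 not called of 5, beside the same shares of all genes. TMEM194A had 0.538, 0.542 and 0.550, with TMEM209 (0.697) above and TMEM43 (0.525) below it. Of 4 genes on a mixed list of cell surface channels, enzymes and signalling 3 were lower, where 44.6% of all genes were. They were the mechanosensitive channel TMEM63B (0.137), the cGAMP sensor adaptor TMEM173 (0.302) and the proton-activated chloride channel TMEM206 (0.335). TMEM63A (0.423) was not called. The calls of TMEM173, TMEM206, TMEM93, TMEM223, TMEM115 and TMEM9B were each lost when 1 replicate was left out. Without replicate 1 this held for TMEM173, TMEM206 and TMEM9B, without replicate 2 for these 3, TMEM115 and TMEM93, and without replicate 3 for TMEM115, TMEM93 and TMEM223, with adjusted p-values (limma) of 0.0578 to 0.107. Among genes with under 5% shared coding 30-mers, where the all-gene median shifted by -0.12 on the log2 scale, the calls of TMEM115, TMEM173, TMEM206, TMEM223 and TMEM93 were lost and those of TMEM63A and TMEM165 were gained. TMEM63A was also called with a pseudocount of 0.1 (adjusted p = 0.0481), and TMEM55B was called lower without replicate 2 (adjusted p = 0.0278). The remaining 47 genes, on no role list, had 16 higher, 24 lower and 7 not called, with a median of 0.323.

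**Figure D2:**
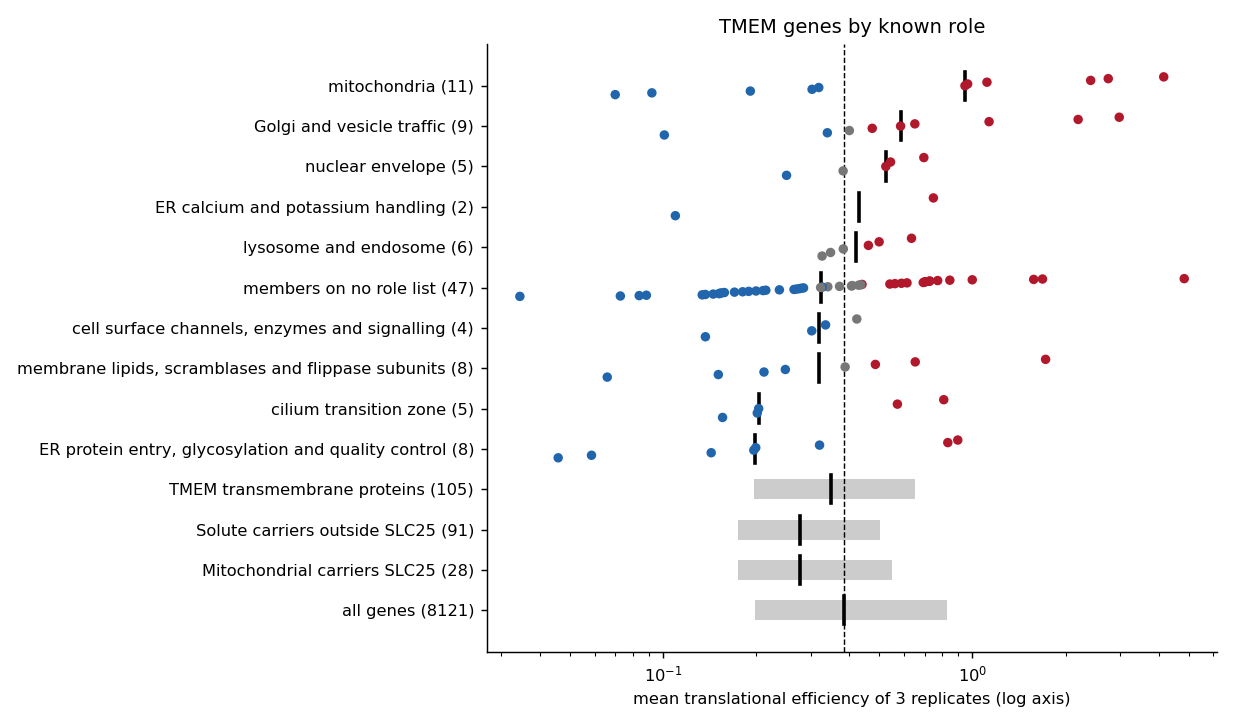
Mean TE (log axis) of each TMEM gene by known role, with the number of genes in brackets, coloured red where higher, blue where lower and grey where not called against the all-gene median (dashed). Black bars are medians, and grey boxes are the quartiles of the TMEM genes, 2 other membrane protein families and all genes. The mitochondrial genes run from 0.0700 to 4.15 and the lysosomal genes from 0.327 to 0.635.

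TMEM genes that share a number and differ in the letter are often paralogs. Within-replicate differences in log2(TE + 0.01) were tested for all 611 such pairs of the table, and 541 (88.5%) were called. Of 12 TMEM pairs 9 were called.

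The largest difference was between TMEM106B and TMEM106C, whose proteins are identical at 46% of 250 aligned residues. Their mean TE was 0.635 ± 0.049 and 0.0344 ± 0.0031 (SD, n = 3), a difference of 14.5-fold on the log2(TE + 0.01) scale (95% interval 12.2 to 17.2; limma, adjusted p = 3.35e-07). Folds between pairs are of TE + 0.01 and are smaller than the ratio of the mean TEs where a gene is low. With a pseudocount of 0.1 the log2 difference was 2.45 in place of 3.86, and with 0.001 it was 4.17, called each time. The mRNAs differed the other way: the worth of a read in the occupancy table puts TMEM106B at 0.615 and TMEM106C at 7.98 times the median mRNA. TMEM14A exceeded TMEM14B 6.15-fold (1.69 and 0.265), and the mRNA of TMEM14B was the more abundant (5.05 against 0.829). In TMEM41A/TMEM41B, TMEM63A/TMEM63B and TMEM87A/TMEM87B too the gene of lower TE had more mRNA. In TMEM120A/TMEM120B and TMEM184B/TMEM184C it had less. Total RNA is the denominator of TE. Across genes Spearman rho of TE with this mRNA estimate was -0.11 in TMEM genes (n = 90) and 0.13 over all. Of TMEM14B 49.1% of the coding 30-mers lie in another gene.

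TMEM184C (0.323) exceeded TMEM184B (0.0837) 3.53-fold in TE + 0.01 (a log2 difference of -1.82, or -1.20 with a pseudocount of 0.1), and TMEM126A (0.303) exceeded TMEM126B (0.0920) 3.07-fold. The channel TMEM63A (0.423) exceeded TMEM63B (0.137) 2.96-fold, and TMEM87B (1.13) exceeded TMEM87A (0.474) 2.36-fold. The differences of 41A over 41B (1.54-fold), 120B over 120A (1.51-fold) and 167A over 167B (1.37-fold) were smaller. The last of these was not called without replicate 1 (adjusted p = 0.0671), and 72.6% of the coding 30-mers of TMEM167A are shared.

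In 3 pairs no difference was called. TMEM161A and TMEM161B had a TE of 0.154 and 0.158, and the difference of -0.02 in log2(TE + 0.01) had a 95% interval of -0.23 to 0.18. TMEM39A and TMEM39B had 0.284 and 0.276, with an interval of -0.15 to 0.23. TMEM185A and TMEM185B, the most similar proteins of the 12 pairs at 88.6% identity, had 0.541 and 0.614, with an interval of -0.58 to 0.16. Of the coding 30-mers 50.5% are shared in TMEM185A and 3.52% in TMEM185B. TMEM185A was 0.700 in replicate 1 and 0.445 and 0.478 in the others, and without replicate 1 the difference of -0.43 was called (adjusted p = 0.0115). Identity did not order the differences, since the pair with the largest difference and TMEM161A/TMEM161B (49.9% identity) were about as similar.

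**Figure D3:**
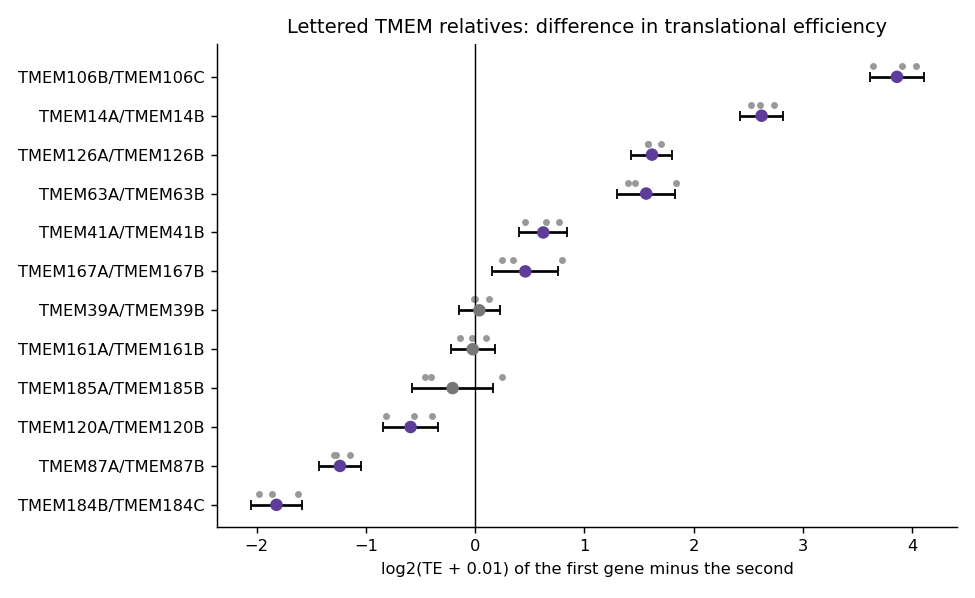
Difference in log2(TE + 0.01) between the first and second gene of the 12 lettered TMEM pairs, as mean with 95% limma interval and, in small points, the 3 replicates. Purple pairs were called and grey ones were not. The 3 grey intervals cross 0, and TMEM106B/TMEM106C lies farthest from it at 3.86.

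The occupancy table gives the position of RPFs along the most abundant transcript of each gene. Its values are in-frame reads per codon, normalized for library size and divided by the TPM of the transcript, with the replicates combined, so single values have no replicate error. The 121 TMEM transcripts carry an estimated 217772 in-frame coding reads, with a median of 1049 per transcript against 1788 over all transcripts. Mean occupancy over the coding sequence (CDS) had a median of 0.0415 per codon, with quartiles of 0.0217 and 0.0680, beside 0.0450 over all 9570 transcripts. The highest were TMEM242 (0.252), TMEM33 (0.190), TMEM30A (0.183), TMEM106B (0.157) and TMEM50A (0.153). TMEM212 had no coding read at all, and TMEM106C stood at 0.00847. Across the 90 genes of both tables occupancy followed TE with a Spearman rho of 0.73, and across all 6912 shared genes of 0.69. Both tables rest on the same RPF and total RNA libraries. TMEM33, an ER membrane protein, was second in occupancy with a TE of only 0.562.

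Ribosomes were unevenly placed within these mRNAs. In TMEM242 the mean occupancy was 0.160 over the first 75 codons and 0.342 over the last 75, in TMEM33 it was 0.0918 and 0.300, and in TMEM30A 0.0914 and 0.225. TMEM50A was more even, with 0.122 and 0.177. The windows share codons in coding sequences under 150 codons, such as TMEM242 with 142. Over 116 TMEM transcripts, 49 (42.2%) had more in the first window than in the last, compared with 49.3% of all transcripts, 41.2% of solute carriers and 38.2% of SLC25 carriers. The median log2 ratio was -0.27 in TMEM transcripts, -0.02 in all, -0.23 in solute carriers and -0.35 in SLC25 carriers. Leaving out 16 TMEM transcripts whose windows share codons, a choice made after seeing the data, gave 44 of 100.

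The codons with the most reads are shown for 4 of these mRNAs and for TMEM261, where 1 codon held 20.7% of all coding reads. The codon is in capitals, between 12 bases before and 15 after it.
TMEM242, codon 107, chr6:157739820-157739822, minus strand: aaagctttaggaGTTcacagtatgaacgac
TMEM33, codon 215, chr4:41956115-41956117, plus strand: ctgaggattgttGTTgaacacataataatg
TMEM106B, codon 91, chr7:12258137-12258139, plus strand: cagagattaaggCCAagaagaacaaagctg
TMEM50A, codon 127, chr1:25683295-25683297, plus strand: gaaaaagacataGTAtaccctggaattgct
TMEM261, codon 97, chr9:7798621-7798623, minus strand: attgccacctggGGTatcgttgtcatggca
These codons held 13.9% of the coding occupancy in TMEM242, 13.03% in TMEM33, 9.11% in TMEM106B and 8.11% in TMEM50A. In TMEM106B the codon lies just before the only hydrophobic segment of the protein, which starts at residue 98. The largest single-codon shares were those of TMEM70 (27.7% at codon 20), TMEM187 (26.8% of only 53.9 estimated reads), TMEM170B (21.7% of 20.7 reads), TMEM141 (21.4%) and TMEM17 (21.0% of 89.3 reads). In TMEM141 the codon was number 107 of 109, where the last is the stop codon. A codon above 20% was found in 8 of 120 TMEM transcripts (6.67%) and in 2.61% of all transcripts. TMEM coding sequences are shorter, with a median of 265 codons against 448, and their part in this share was not tested.

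Hydrophobic segments, read as 19 residues of the translated CDS with a mean Kyte-Doolittle hydropathy of at least 1.6, mark likely membrane spans. They were found in 112 of 118 TMEM transcripts (94.9%), with a median of 3 per protein and up to 14 in TMEM245. This is far above the 29.4% of all transcripts and below the median of 8 in solute carriers. SLC25 carriers had a median of 1, with a segment found in 19 of 32 (59.4%). The 6 without a segment by this measure were TMEM11, TMEM59, TMEM70, TMEM135, TMEM164 and TMEM209. The measure can miss spans, so it does not show that these proteins lack them. For TMEM59, TMEM70 and TMEM164 the transcript in the table encodes a shorter protein (146, 108 and 149 codons with the stop) than the longest annotated one (324, 261 and 298).

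Occupancy was low over the first segment itself. Relative to the mean of its own CDS, the median TMEM transcript was at 0.52 and 0.47 in the 2 bins of 10 codons that cover the segment, at 0.68 in the bin before and at 0.73 in the bin after it. All transcripts with a segment showed the same shape, at 0.45 and 0.47 over the segment, 0.63 before and 0.70 after. The bins hold different sets of transcripts, 61, 74, 88 and 96 of TMEM genes from before to after the segment. Segments near the start codon have no bins before them, and the part of position in the CDS was not tested. From the point where the segment has left the ribosome exit tunnel, taken as 40 codons past its end, occupancy was lower than before in 39 of 92 TMEM transcripts (42.4%), compared with 52.6% of 2299 transcripts. With 60 codons in place of 40 the TMEM share was 54.7%, so no direction is drawn from it. In TMEM242, TMEM33 and TMEM30A, the 3 highest in CDS occupancy, it was higher after the point at 40 codons, by 1.44, 1.37 and 1.29 on the log2 scale. With 60 codons TMEM30A was at 0.853. Changes as large went the other way, with log2 values of -1.79 in TMEM9 and -1.73 in TMEM120B at 40 codons.

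**Figure D4:**
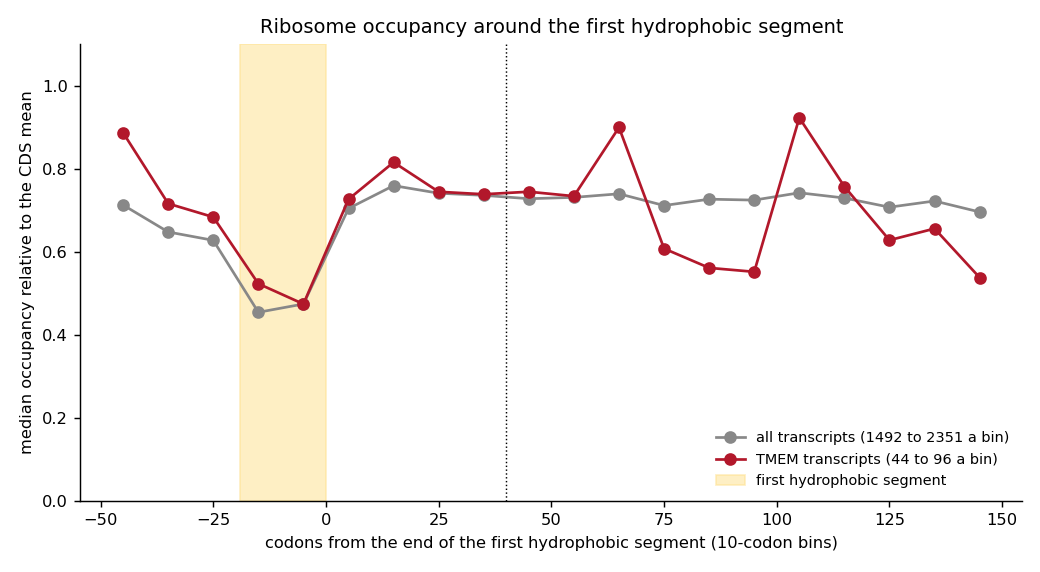
Median occupancy relative to the mean of each CDS, in bins of 10 codons from the end of the first hydrophobic segment (shaded), for TMEM transcripts and all transcripts with at least 100 coding reads. The dotted line is 40 codons past the segment. Both curves fall to about 0.5 over the segment and return to about 0.7 after it, and the TMEM curve, of 44 to 96 transcripts a bin, scatters more farther on.

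Sequence features of the mRNA tracked TE weakly among the TMEM genes. Spearman rho with TE was -0.19 for CDS length (n = 90), -0.26 for GC content of the 5′UTR (n = 89), -0.12 for the number of upstream ATGs and -0.06 for the number of hydrophobic segments. Over all genes these were -0.26, -0.06, -0.24 and -0.09. Positive values were found for 5′UTR length (0.19) and 3′UTR length (0.19), with -0.06 and 0.05 over all genes. The number of purine tetramers (AAGA or AGAA or GAAA or GAGA or AGAG or GGAA or AAAA or GAAG on the sense strand, overlaps counted) in the last 50 bases of the 5′UTR had a rho of 0.24 (n = 69), and -0.03 over all genes. At least 1 was present in 54.3% of 92 TMEM transcripts with such a stretch and in 60.9% of all. TMEM genes with no upstream ATG had a median TE of 0.372 (n = 47) and those with at least 1 had 0.340 (n = 42). Over all genes the medians were 0.478 and 0.294, a wider gap. These are descriptions across genes, which are not replicates of each other.

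In-frame reads in the 5′UTR took a median of 0.838% of a TMEM transcript's occupancy, beside 0.364% over all transcripts, and 24 of 121 had none. A share above 10% was found in 12 transcripts (9.92%), compared with 5.86% of all, 12.5% of solute carriers (median 1.21%) and 14.7% of SLC25 carriers (median 1.17%). The highest shares were 34.5% in TMEM218 (95% Wilson interval 29.7 to 39.98), 26.0% in TMEM129 (22.04 to 30.5), 24.6% in TMEM14B (23.2 to 26.1), 23.5% in TMEM108 (17.2 to 32.0) and 20.9% in TMEM9B (18.2 to 23.7). These intervals cover counting error in the estimated reads only. The windows around the highest 5′UTR codons are shown because their positions differ in kind between genes. The codon is in capitals.
TMEM14B, 5 codons before the start, chr6:10749464-10749466, plus strand: tctcctttctggACTgagaagagaagaatg
TMEM106C, 7 codons before, chr12:48357999-48358001, plus strand: tgcaggacatgaCACcagtggcatatcacg
TMEM208, 18 codons before, chr16:67261068-67261070, plus strand: ggtgcttagtgaTTGcggtttcggtcgctc
TMEM9B, 36 codons before, chr11:8985836-8985838, minus strand: tgtggggaggccTTCttcggcttggctcct
In TMEM14B, 78.2% of the 5′UTR reads lay in codons 4 to 8 before the start. However, 91.6% of this occupancy lay on windows of 28 bases found elsewhere in the genome too, so reads of TMEM14B and of such copies cannot be told apart. In TMEM106C the highest codon held 44.9% and in TMEM208 60.2% of the 5′UTR occupancy. In both the codon directly follows an in-frame stop codon (tga), so the frame from there to the start codon is open for 7 and 18 codons. The window of TMEM106C also holds an ATG in another frame just before it. Of the 5′UTR occupancy of TMEM106C 21.1%, on 1 codon other than the highest, lay on a window found elsewhere in the genome. In TMEM9B all in-frame 5′UTR occupancy lay in an open stretch of 63 codons before the start, spread over 23 codons. The longest annotated TMEM9B protein has 199 codons, where the transcript in the table has 125.

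TMEM129 differed in that 58.9% of its 5′UTR occupancy sat on a single codon 151 codons before the start, and only 0.950% of it lay in the open frame of 40 codons next to the start. Its CDS had the second lowest TE of the set. Over the 118 matched transcripts, 6 had 5′UTR codons in the reading frame of another annotated isoform: TMEM9B, TMEM230 (9.89% in the 5′UTR), TMEM126A (7.76%), TMEM175 (5.81%), TMEM45A (5.66%) and TMEM164 (4.59%). Their median 5′UTR share, taken over all 5′UTR codons, was 6.79%, against 0.643% in the other 112. The part of this occupancy on codons in the frame of the isoform was 100% in TMEM175, 96.1% in TMEM164, 57.3% in TMEM126A, 21.8% in TMEM9B, 11.1% in TMEM230 and 0% in TMEM45A, which has 1 such codon. In TMEM230 37.1% of the 5′UTR occupancy lay on windows found elsewhere in the genome.

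Reads after the stop codon were rarer, with a median share of 0.118%, and 42 of 121 transcripts had none. A share above 5% was found in 9 TMEM transcripts (7.44%), compared with 2.48% of all, 5.15% of solute carriers and 2.94% of SLC25 carriers. Some of the 9 rested on few estimated 3′UTR reads, 11.2 in TMEM216, 10.7 in TMEM241 and 9.08 in TMEM17. In 4 of the 9 the 3′UTR carried more than 20%. TMEM212 had 264 estimated reads there and none in its CDS, and 98.1% of that occupancy lay on windows that occur elsewhere in the genome, some of them 18610 times. TMEM70 had 95.3% of its occupancy in the 3′UTR, 49.7% of it in 5 neighbouring codons 383 to 387 codons past the stop, and a gene-level TE of 0.965. The matched transcript covers 22 of the 97 occupied 3′UTR codons of TMEM70, so the others could not be searched for copies. In TMEM237, a Joubert syndrome gene, 30.2% (29.0 to 31.5) was in the 3′UTR, and 95.8% of this lay in codons 338 to 342 after the stop.
TMEM237, codon 339 after the stop, chr2:202487961-202487963, minus strand: ttcaaaggctgtTGAgcacatcaataaaac
That codon held 46.9% of the 3′UTR occupancy, and its window occurs once in the genome. Of the 12 occupied 3′UTR codons 2, with 13.5% of the occupancy, lay on windows found elsewhere. TMEM203 was different, with 22.6% (18.5 to 27.5) spread over 43 codons, none of them on a repeated window and the highest with 7.16%. TMEM170B followed with 17.5% (6.40 to 34.7), which rests on 4.38 estimated reads.

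**Figure D5:**
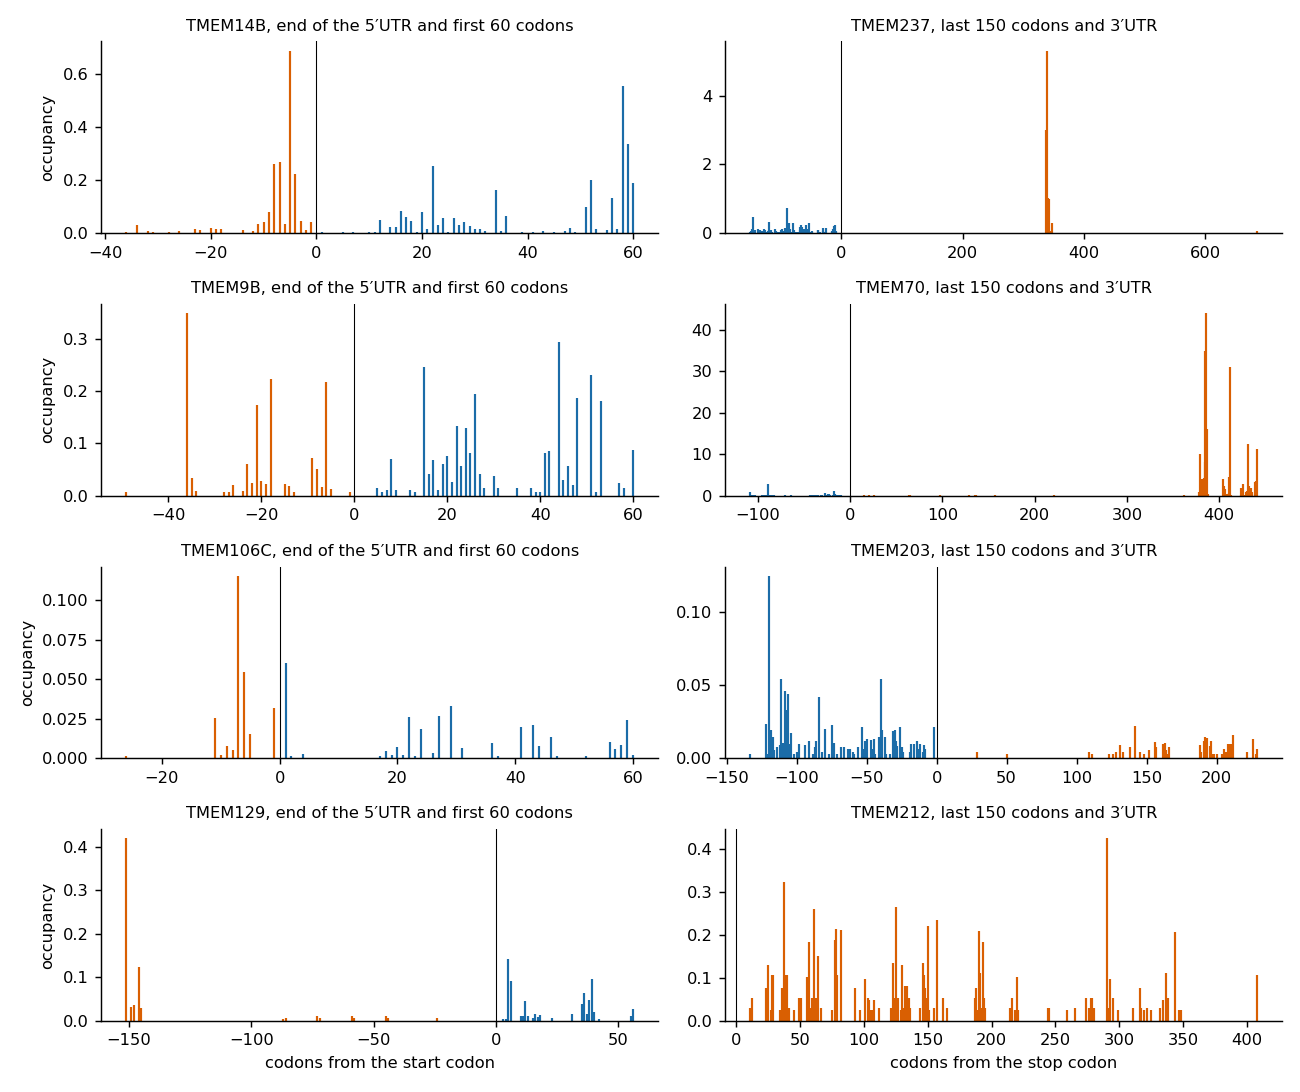
Occupancy per codon (in-frame reads normalized for library size and TPM) of 4 TMEM transcripts around the start codon (left) and 4 around the stop codon (right), with UTR codons in orange and coding codons in blue. The vertical axes differ between panels. TMEM14B and TMEM106C peak within 10 codons of the start, TMEM9B at 36 codons and TMEM129 at 151 codons before it, TMEM237 and TMEM70 have narrow peaks far past the stop, and TMEM203 and TMEM212 are spread out.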

How the data were processed

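Per the labels and the methods, the authors trimmed adapters with Cutadapt 1.16 and removed PCR duplicates with cd-hit-dup. Bowtie 1.1.2 placed the RPFs on the transcriptome (hg19), and reads of 28 to 30 nt were assigned to codons at an offset of 13. For total RNA the methods name Hisat2 and the processing notes TopHat2 2.1.1, with counting in HTSeq 0.9.1. The TE deposited by the authors is a linear ratio for each replicate. Its formula was not given in the paper or labels. The deposited occupancy is a list of normalized values per codon with the replicates combined.

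TE was taken as log2(TE + 0.01), and the median over all genes was subtracted. limma 3.58.1 (R 4.3.3) tested 8121 genes and 611 lettered pairs at a Benjamini-Hochberg FDR of 0.05, the pairs on differences within a replicate, since the RPFs and total RNA of a number come from 1 lysate. Nothing says that the lysates are separate cultures, so p-values measure only the spread between these samples. On simulated data for the test of 8121 genes, 172 of 200 genes moved by 1 log2 unit were recovered. Reads were estimated from the smallest step between a transcript's values, found for 9441 of 9570 transcripts and all 121 of TMEM genes. Intervals are 95% Wilson intervals. Sequences are those of GENCODE 44 on GRCh37, matched by symbol and CDS length for 118 TMEM transcripts. UTR positions count from the start or stop codon of the matched transcript, whose UTR length can differ from that in the occupancy table. Hydrophobic segments came from the translated CDS, where RefSeq proteins had been planned. Shared sequence is the percentage of coding 30-mers found in another annotated gene, overlapping and readthrough genes included. Python 3.11.15, SciPy 1.17.1 and Biopython 1.88 were used.

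Named genes are the 10 highest and 10 lowest in mean TE, the 3 with the largest SD over replicates, members of the role lists, lettered pairs, partner genes as counts with examples, and the 5 highest in CDS occupancy, in 5′UTR share, in 3′UTR share and in the share of 1 codon. TMEM45A, TMEM164, TMEM135 and TMEM245, and the 5′UTR codons of TMEM106C and TMEM208, were chosen after their values were seen. Members, role lists and partner lists were chosen with earlier results of these data known. Alternatives were other pseudocounts, a TE minimum, genes with little shared sequence, each replicate left out, the replicate block, the highest codon left out and other segment settings.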

Additional observations from a re-analysis of the deposited data

How the results depend on the processing

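The counts of TMEM genes called higher and lower stayed within 1.5 times the reported ones under each alternative run. The median log2 TE of the TMEM genes against all genes, -0.142, was -0.114 with a pseudocount of 0.1, -0.0614 over genes with a mean TE of at least 0.05, -0.0223 over genes with under 5% shared coding 30-mers and -0.0972 to -0.0534 without 1 replicate each. With the replicate block it was -0.142, with 42 TMEM genes higher and 49 lower, and without the replicate block 540 pairs were called, 9 of them TMEM pairs. The block changed no call of a named gene or pair. Of 74 named TMEM genes 61 kept direction and side of the threshold throughout, as did 8 of 12 pairs, and 6 lost a call, 5 of them among genes with little shared sequence. Uncalled values near 0 changed sign. TMEM41A was -0.00173 with the TE minimum, and 0.114 for TMEM120B and 0.115 for TMEM127 with little shared sequence. Without 1 replicate each, TMEM41A ran from -0.0296 to 0.0413, TMEM120B from -0.0534 to 0.0190, TMEM127 from -0.0342 to 0.0445, TMEM39A/TMEM39B from -0.00791 to 0.0616 and TMEM161A/TMEM161B from -0.0818 to 0.0339. TMEM120B was 0.0137 and TMEM127 0.0445 without replicate 1. The cause was not tested.

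Without the highest codon the median CDS occupancy was 0.0382, and without the highest codon of each UTR the median shares were 0.446% (5′UTR) and 0% (3′UTR). The share of TMEM transcripts with less occupancy after the first segment was 54.7% at 60 codons. Precision is limited by 3 replicates for TE, by combined replicates in the occupancy table and by read number, since 2 of 121 TMEM transcripts have under 25 coding reads.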
